A study of Mus musculus with 32 samples.

Results

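The genes described here are 33 mouse genes for the granule proteins, cytosolic proteins and receptors that neutrophils acquire as they mature. They were taken by symbol from RSEM gene tables that list 55487 gene identifiers, and all 33 symbols had a row. By role, 6 encode primary (azurophil) granule proteins, 8 secondary (specific) granule proteins and 2 tertiary (gelatinase) granule proteins. Another 5 encode cytosolic or nuclear proteins, 7 encode surface receptors or adhesion proteins, and 5 are other stage markers. Of the 33 genes, 26 passed the filter on low counts (about 10 counts at the median depth in at least 4 libraries) and were tested. The other 7 (Bpi, Mmp25, Padi4, Fpr1, Fpr2, Ly6g and Retnlg) did not pass it and are given by their counts. Of the 26, 25 would also have passed on mutant libraries alone, and Mmp9 passed only through wild-type libraries.

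RNA sequencing compared 2 lines of hematopoietic progenitors from mouse fetal liver, immortalised with ER-HOXB8, an estrogen-dependent form of the HOXB8 homeobox protein that holds myeloid progenitors in an immature, dividing state. The line hi-77+/+ carries an intact upstream enhancer of Gata2 (genotype Gata2 -77+/+, wild-type below) and the line hi-77-/- lacks it (Gata2 -77-/-, mutant below). Each line received vehicle, interferon gamma (IFNg) at 1 ng/ml, the TLR1 and TLR2 agonist Pam3CSK4 at 100 ng/ml, or both agents, for 4 h, with 4 libraries in each of the 8 groups. All 8 groups grew with estradiol, stem cell factor-conditioned medium and G418, so ER-HOXB8 was active throughout. The labels name 1 line per genotype and leave unstated whether libraries within a group were grown as independent cultures. The p-values below therefore measure the spread between these libraries, and genotype cannot be told apart from other differences between the lines.

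Neutrophil granules form in sequence as a progenitor matures. Primary granules are filled first, at the promyelocyte stage, with myeloperoxidase and serine proteases. Secondary granules with lactoferrin and lipocalin follow at the myelocyte stage, and tertiary granules with gelatinase come last. The transcription factor C/EBP-epsilon is known for its part in transcription of secondary granule genes, C/EBP-alpha and PU.1 for theirs in the earlier primary granule programme. GATA2 is known for its role in stem and progenitor cells and in the mast cell and basophil lineages.

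Because the secondary granule genes are the group in which members differed most from each other between the lines, the windows around their transcription starts were searched for a C/EBP motif. The motif was TTGCNNAA on either strand, and the windows were those of RefSeq on GRCm38.p6 (mm10), available for 29 of the 33 genes (all but Prss57, Mmp9, Serpinb1a and Itgb2). It was present in 11 of the 29 windows and in 10.8% of all 32851 windows of the same length. None of the 5 primary granule windows held it, and 4 of the 8 secondary granule windows did (Ngp, Ltf, Lcn2 and Mmp8). The 30 bases around each match upstream of these 4 RefSeq starts are printed 5′ to 3′ in the direction of the gene, with the motif in capitals. They are shown because a match to this motif precedes the RefSeq start of Mmp8, which was higher in the mutant line, as well as those of Ngp, Ltf and Lcn2, which were lower. In GENCODE vM21, used to name the genes, Lcn2 spans 32384633 to 32388252 and Ngp 110419747 to 110423012. By that annotation the Lcn2 match and the nearer Ngp match lie inside the gene. Mmp8 and Lcn2 share the letters TTGCTCAA, and Ltf and the match nearer the start of Ngp have TTGGGCAA, the motif on the other strand.
Ngp, chr9:110419659-110419688, plus strand, motif starting 138 bases before the start: gtcctggtttaTTGCCCAAacctccttgcc
Ngp, chr9:110419778-110419807, plus strand, 11 bases before the start: tttatgtcaccggcagttcTTGGGCAAggc
Ltf, chr9:111019206-111019235, plus strand, 75 bases before the start: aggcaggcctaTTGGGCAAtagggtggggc
Lcn2, chr2:32387937-32387966, minus strand, 216 bases before the start: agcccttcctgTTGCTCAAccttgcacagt
Mmp8, chr9:7558399-7558428, plus strand, 19 bases before the start: ttaggcagaagTTGCTCAAgatgtagcttt
A GATA motif (AGATAA or TGATAA, either strand) was in 4 of the 29 windows and 18.6% of all windows. The PU.1 letters GAGGAA were in 19 of the 29 windows and in 28.3% of all windows, among them all 5 primary granule windows and 5 of the 8 secondary ones. These are matches of letters only. No factor's binding is measured here.

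The 32 libraries held 44.18 to 71.42 M expected counts each. Gata2 was at 35.1, 40.4, 54.7 and 43.4 CPM (a count relative to its library's total after TMM scaling between libraries) in wild-type cells with vehicle. The mutant cells with vehicle had 6.62, 8.03, 7.37 and 8.06 CPM, lower as the label of that line implies. One technical measure moved with the groups. The share of counts in mitochondrial and small structural RNA genes was 19.4 to 28.8% in wild-type vehicle libraries, highest in libraries 4 and 1 (28.78 and 25.83%). It was 12.8 to 17.8% in the 12 wild-type libraries with an agent and 15.4 to 30.3% in the 16 mutant libraries. Results that use wild-type vehicle libraries are therefore also given without libraries 1 and 4, and with this share added to the model, where that changes them. Progenitor markers (Kit, Cd34, Ptprc, Myb, Flt3) summed to 2522 to 2717 CPM in the wild-type line and 3031 to 3431 CPM in the mutant line. The largest part was Cd34 (1352 CPM in wild-type and 1790 in mutant vehicle libraries). Of the 5 genes, 4 were higher in the mutant with vehicle and 1, Kit, was lower (317 and 295 CPM). Hepatocyte markers summed to 0.304 CPM or less in every library.

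Without agonist, the mutant line had less RNA of most of these genes. Of the 26 tested, 22 were lower, 1 (Mmp8) was higher and 3 (Ctsg, Serpinb1a and Cst7) did not pass an adjusted p of 0.05 (edgeR quasi-likelihood test, Benjamini-Hochberg over 14869 genes). Of all genes tested, 53.7% passed in this comparison, 29.3% lower and 24.4% higher. The 22 include Mmp9, which passed the filter only through the line where it was higher. Without wild-type vehicle libraries 1 and 4, 21 were lower and 2 higher, with Ctsg called (log2 0.18 ± 0.07, adjusted p = 0.0218) and Cd177 not called (-0.84 ± 0.48, adjusted p = 0.144). RLE scaling and DESeq2 each gave 22 lower and 2 higher. For 23 of the 26, Mmp9 among them, no library of one line reached the range of the other, against 43.6% of all genes tested. The median log2 difference was -1.24 over the 26 and -0.01 over all genes tested. By role it was -0.85 over 5 primary granule genes, -3.82 over 8 secondary granule genes, -2.66 over 4 cytosolic or nuclear genes, -0.79 over 4 surface genes and -1.34 over 4 stage markers. In bulk RNA, fewer cells that express a gene and less RNA per cell cannot be told apart.

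**Figure D1:**
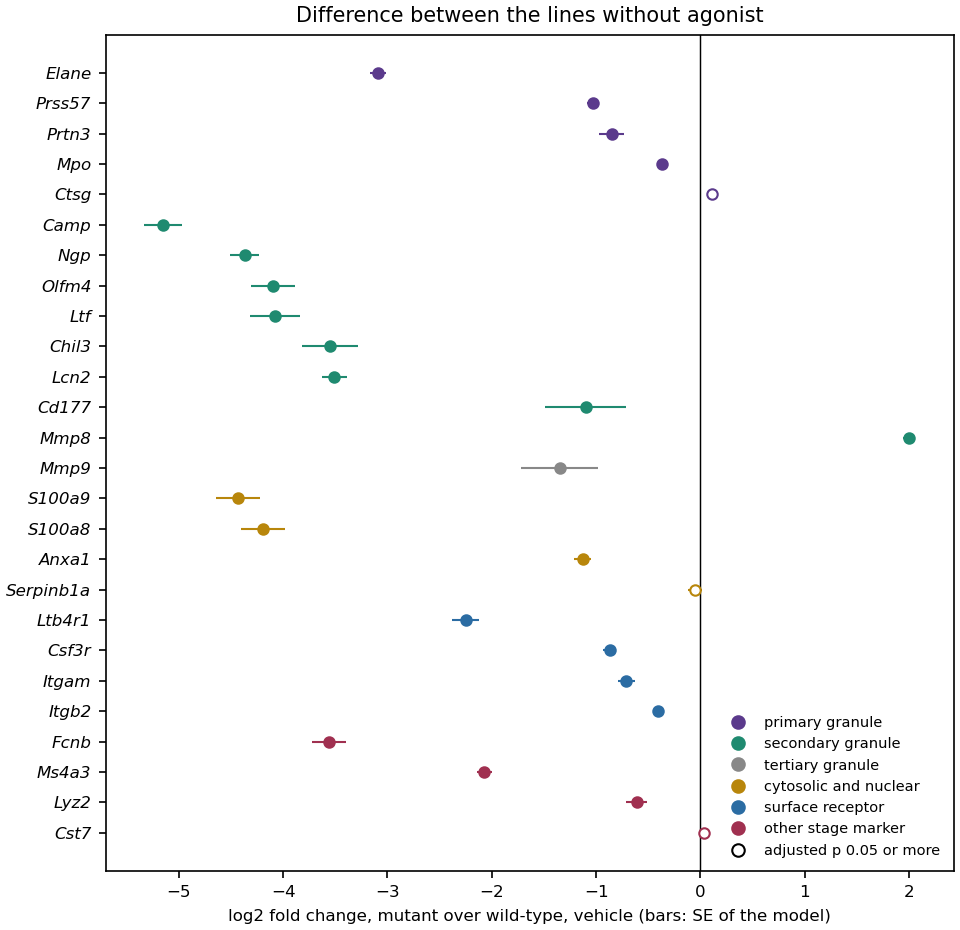
Log2 fold change of mutant over wild-type with vehicle (horizontal axis) for the 26 tested genes, coloured by role, with bars for the standard error of the model and open circles for an adjusted p of 0.05 or more. The secondary granule genes spread from -5.15 (Camp) to 2.00 (Mmp8), while 4 of the 5 primary granule genes lie between -1.03 and 0.11. Mmp9, the tertiary granule gene drawn, passed the filter only through wild-type libraries.

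Markers of other lineages also differed between the lines. Mast cell and basophil markers summed to 562 to 667 CPM in wild-type libraries and 94.1 to 121 in mutant ones (7 genes, Fcer1a and Gzmb at 0 in all mutant libraries). Eosinophil markers summed to 70.5 to 81.2 and 14.4 to 18.7 CPM (7 genes, Ear1 and Ear2 at 0 in the mutant) and erythroid markers to 59.1 to 106 and 1.21 to 2.46 CPM (7 genes, Car1 at 0 in the mutant). Monocyte and macrophage markers summed to 216 to 301 CPM in wild-type libraries and to 588 to 778 CPM in those of the mutant (9 genes). Most of that sum was Ccr2 and F13a1 (185 and 58.3 CPM in wild-type and 409 and 314 in mutant vehicle libraries), and of the 7 tested genes 4 were higher and 3 lower in the mutant, among the latter Adgre1 (20.9 to 6.01 CPM) and Cx3cr1 (4.58 to 0.979 CPM). Early B markers summed to 37.4 to 48.9 and 214 to 314 CPM (7 genes, none at 0). Megakaryocyte markers summed to 11.1 to 17.2 and 2.97 to 4.14 CPM (5 genes, Ppbp at 0 in the wild-type). Most of that sum in the wild-type was Itga2b (13.3 CPM with vehicle, against 1.93 in the mutant), and of the 4 tested genes 3 were lower and 1, Pf4, higher (0.0592 to 0.302 CPM). Their part in the differences of the granule genes was not tested.

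Of the 5 tested primary granule genes, 4 were lower in the mutant line, from 1.29-fold (Mpo) to 8.5-fold (Elane), and Ctsg was not called. Mpo, the myeloperoxidase gene, was at 2331, 2415, 2473 and 2423 CPM in wild-type and 1833, 1866, 1811 and 1943 CPM in mutant vehicle libraries. The groups did not overlap (log2 -0.37 ± 0.04 SE, adjusted p = 5.5e-10). Elane, the gene of neutrophil elastase, was at 25.4, 24.4, 26.3 and 30.8 CPM in wild-type and 2.87, 3.72, 3.16 and 2.87 CPM in mutant libraries. Every mutant library was far below every wild-type one (log2 -3.09 ± 0.08, adjusted p = 7.0e-27). Prtn3, which encodes proteinase-3 and lies next to Elane on chromosome 10, was at 178 ± 26.5 CPM (SD, n = 4) against 99.1 ± 11.7 (log2 -0.85 ± 0.12). Prss57, a serine protease of the same granules, was at 14.5 CPM on average against 7.08 (log2 -1.03 ± 0.06). Ctsg, the cathepsin G gene, was at 392, 373, 326 and 375 CPM in wild-type and 412, 408, 384 and 378 CPM in mutant libraries. These ranges overlapped, and the log2 difference was 0.11 with a 95% interval of 0.00 to 0.22 (adjusted p = 0.0887).

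Of the 8 secondary granule genes, 7 were lower in the mutant. Camp, which encodes the cathelicidin antimicrobial peptide, was at 12, 10, 8.72 and 12.2 CPM in wild-type and 0.26, 0.449, 0.383 and 0.145 CPM in mutant libraries. The mutant values rest on 9 to 23 counts per library. The difference was 35.4-fold (log2 -5.15 ± 0.18, adjusted p = 2.2e-23), and it had the greatest size among the 26 tested genes. Ngp, the neutrophilic granule protein, was at 22.4, 23.9, 19.7 and 25.8 CPM against 1.51, 0.961, 0.949 and 0.964 CPM. It was 20.7-fold lower, again with no overlap (log2 -4.37 ± 0.14, adjusted p = 4.2e-22). Ltf (lactoferrin) was at 8.6 against 0.495 CPM on average, a 17-fold difference. Lcn2 (lipocalin-2, which binds bacterial siderophores) was at 9.61 against 0.851 CPM (11.4-fold). Olfm4 (olfactomedin 4) was at 5.28 against 0.304 CPM (17.2-fold). Chil3, a chitinase-like protein, was at 2.73 against 0.231 CPM (11.7-fold). Chil3 belongs to a gene family with close copies, so its value depends on how the quantifier divided shared reads. Cd177, a surface protein also stored in these granules, was low in both lines (0.361 and 0.165 CPM, log2 -1.10 ± 0.39, adjusted p = 0.0182).

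Mmp8 went the other way. It encodes neutrophil collagenase and was at 13.5, 13.1, 11.4 and 12.7 CPM in wild-type and 52.6, 50.7, 49.7 and 49.5 CPM in mutant vehicle libraries. All mutant libraries were close to each other and above all wild-type ones, a 4-fold difference (log2 2.00 ± 0.06, adjusted p = 4.5e-25). Over all treatments its range was 10.9 to 13.8 CPM in 16 wild-type and 43.1 to 57 CPM in 16 mutant libraries.

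**Figure D2:**
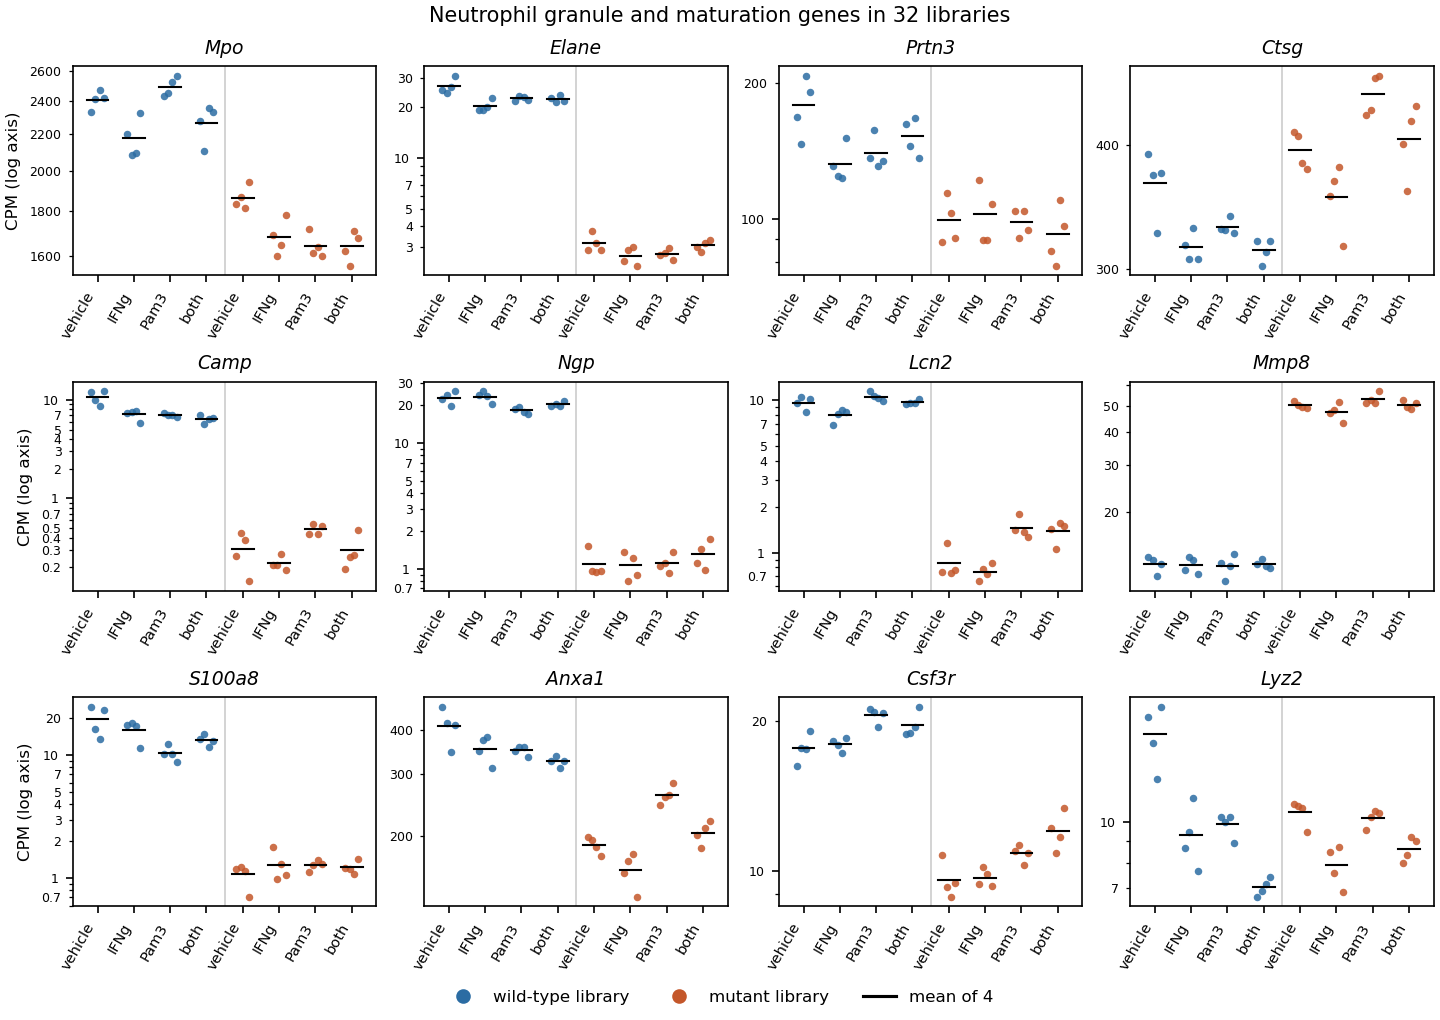
CPM (log axis, its range differing between panels) of 12 genes in each of the 32 libraries, by line and treatment, with the mean of 4 as a bar. Camp, Ngp, Lcn2 and S100a8 sit far lower in all mutant groups, Mmp8 is near 50 CPM in every mutant group, and Mpo, Ctsg and Lyz2 differ by less than these. Mpo still does not overlap between the lines (2086 to 2566 CPM in wild-type and 1558 to 1943 CPM in mutant libraries).

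Compared per length, on the deposited TPM scale (a transcript's share of its library after correction for length), the make-up of the RNA of the 33 genes differed between the lines. The 6 primary granule genes summed to 576 ± 99.4 TPM in wild-type and 453 ± 38.8 TPM in mutant vehicle libraries (SD, n = 4). That was 64.8 ± 2.79% and 75 ± 0.831% of the summed TPM of all 33 genes, of which the cytosolic and nuclear genes held 21.2 and 13.7%. The primary granule sums themselves overlapped between the lines (484 to 683 and 421 to 509 TPM). The 8 secondary granule genes summed to 22.3 ± 3.48 and 8.11 ± 0.503 TPM, and without Mmp8 to 20.5 ± 3.18 and 1.06 ± 0.0993 TPM. Mmp8 alone was at 1.82 ± 0.326 TPM in the wild-type and 7.05 ± 0.562 TPM in the mutant. Most of the secondary granule RNA of the mutant line was thus Mmp8, while in the wild-type line Ngp (7.29 ± 1.32 TPM), Camp (6.35 ± 0.684 TPM) and Lcn2 (4.45 ± 0.95 TPM) were each above it. Mpo was at 342 ± 65.8 TPM in the wild-type, so even there the whole secondary granule group was far below 1 primary granule gene.

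Tertiary granule genes were barely detected. Mmp9, the gelatinase B gene, was at 0.177, 0.27, 0.385 and 0.334 CPM in wild-type and 0.0487, 0.15, 0.0998 and 0.161 CPM in mutant vehicle libraries. The latter rest on 3 to 10 counts each, and since Mmp9 passed the filter only through wild-type libraries its test is not given. Mmp25, a membrane-anchored metalloproteinase, had 0 counts in the 16 wild-type libraries and 8 in the 16 mutant ones. A floor of 3 counts over the wild-type libraries allows up to 0.00339 CPM, and the mutant level was 0.0085 CPM.

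Among the cytosolic and nuclear members, both calprotectin genes were far lower in the mutant. S100a8 was at 24.8, 16.5, 13.7 and 23.3 CPM in wild-type and 1.2, 1.24, 1.15 and 0.707 CPM in mutant vehicle libraries. The 2 highest wild-type values were those of libraries 1 and 4, and no library of one line reached the other line (18.3-fold, log2 -4.19 ± 0.21, adjusted p = 3.1e-16). S100a9, the partner subunit, was at 34.1, 26.1, 21.2 and 33 CPM against 2.11, 1.07, 1.2 and 0.851 CPM (21.6-fold, log2 -4.43 ± 0.21, adjusted p = 3.6e-16). Anxa1, the annexin A1 gene, was lower by less (411 against 188 CPM on average, log2 -1.13 ± 0.08). Serpinb1a, an inhibitor of the primary granule proteases, was at 229 CPM in the wild-type and 222 in the mutant (log2 -0.05, 95% interval -0.17 to 0.08). Padi4, the enzyme that citrullinates histones in neutrophils, had 69 counts over 16 wild-type and 24 over 16 mutant libraries.

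Receptor and adhesion genes differed moderately. Csf3r, the receptor of granulocyte colony-stimulating factor, was at 17.7 ± 1.14 CPM in wild-type and 9.63 ± 0.845 CPM in mutant vehicle libraries (SD, n = 4, log2 -0.87 ± 0.06 SE). The beta-2 integrin chains Itgam (CD11b) and Itgb2 (CD18) were lower by 0.71 ± 0.08 and 0.41 ± 0.04 on the log2 scale. Ltb4r1, a leukotriene B4 receptor, was at 4.12, 4.3, 3.97 and 4.43 CPM against 0.86, 0.833, 0.998 and 0.835 CPM. Of the 4 tested surface genes it differed most, 4.75-fold with no overlap (adjusted p = 3.8e-17). The formyl peptide receptors and Ly6g, which mark mature neutrophils, were near 0. Fpr1 had 12 counts in all wild-type and 2 in all mutant libraries, and Ly6g had 16 and 2. Fpr2 had 28 and 0 counts, so with a floor of 3 counts over the 16 mutant libraries it was at least 9.91-fold lower there.

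Of the other stage markers, 3 were lower and 1 was not called. Ms4a3, a gene of granulocyte and monocyte progenitors, was at 99.3 ± 12.3 CPM in wild-type and 23.6 ± 1.91 CPM in mutant vehicle libraries (4.2-fold lower). Fcnb (ficolin B, a lectin of immature myeloid cells) was at 8.26 ± 1.25 against 0.695 ± 0.13 CPM, 11.8-fold lower. Lyz2, the lysozyme gene, was at 17.7, 15.4, 12.6 and 18.7 against 11, 10.9, 10.8 and 9.47 CPM (log2 -0.61 ± 0.10, adjusted p = 3.7e-06). Cst7 (cystatin F, an inhibitor of lysosomal proteases) was at 97.2 and 99 CPM, with a 95% interval of the log2 difference of -0.04 to 0.09. Retnlg, of late neutrophils, had 62 and 3 counts over 16 libraries each, and Bpi, a primary granule gene whose product permeabilises bacteria, had 20 and 22.

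Further lists of related genes are to be read against the same 29.3% lower and 24.4% higher among all genes tested. Among 8 regulators of granulocyte transcription, 4 were lower in the mutant with vehicle, 2 higher and 2 not called (median log2 -0.18). Cebpe, the gene of C/EBP-epsilon, was at 12.4, 10.6, 14.3 and 17.4 CPM in wild-type and 0.6, 0.854, 1.08 and 0.498 CPM in mutant libraries. That 18.1-fold difference (log2 -4.18 ± 0.18, adjusted p = 3.0e-19) lies between those of Olfm4 and S100a8. Cebpa and Gfi1 were lower by 0.50 ± 0.05 and 0.55 ± 0.04 on the log2 scale, and Irf8 and Runx1 were higher by 1.28 ± 0.05 and 0.39 ± 0.08. Spi1, the PU.1 gene, was at 40.5 and 40.2 CPM (log2 -0.01, 95% interval -0.12 to 0.10). Of 12 genes for granule processing, packing and release, 9 were lower and 1 higher (median log2 -0.28). Cd63, a granule membrane tetraspanin, differed most (117 against 38.3 CPM, log2 -1.61 ± 0.04), followed by Unc13d (-0.80 ± 0.05) and Lyst (-0.58 ± 0.06), and Ap3b1 was higher by 0.14 ± 0.03. Of 26 other neutrophil genes, 24 were tested, 21 were lower and 1, Cxcr4, was higher (median log2 -1.26). Among those at 1 CPM or more, the stefin A genes Stfa1, BC100530 and Stfa3, cysteine protease inhibitors, were lower by 4.36, 4.26 and 4.25 on the log2 scale. These 3 are near-identical copies whose reads may have been shared between them.

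**Figure D3:**
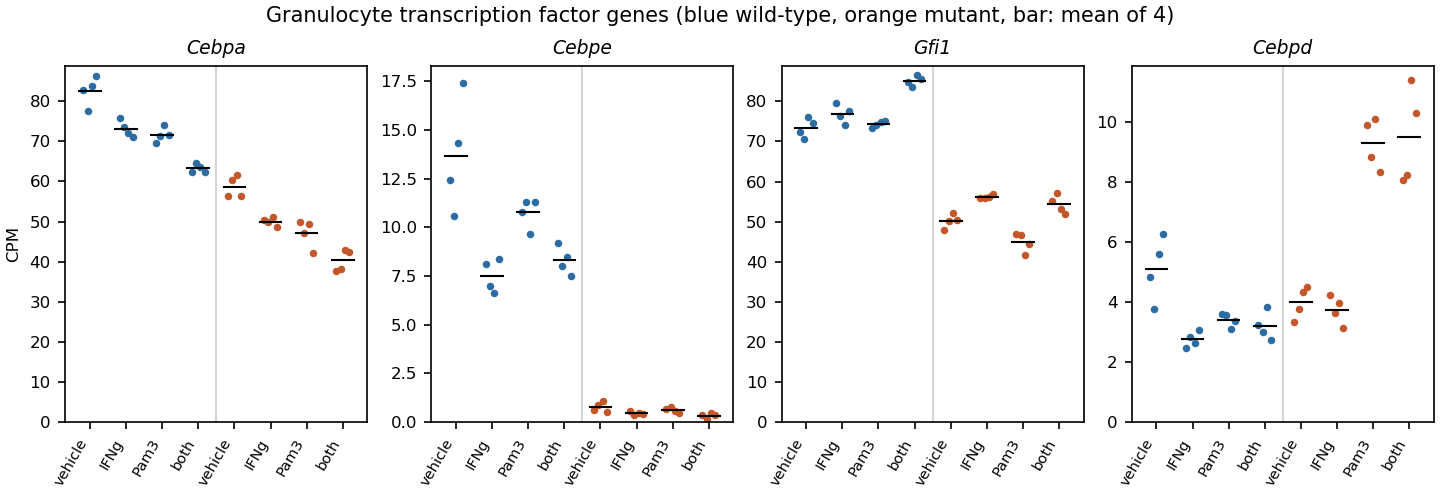
CPM (linear axis from 0) of 4 transcription factor genes in the 32 libraries by line and treatment, with the mean of 4 as a bar. Cebpe lies between 6.64 and 17.4 CPM in wild-type libraries and at or below 1.08 CPM in mutant ones, and Cebpd is near 10 CPM only in the mutant libraries that received Pam3CSK4, alone or with IFNg.

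Differences between the lines were tested again under each agent. Of the 26 genes, 20 were lower and 2 higher in the mutant with IFNg, where 53.1% of all genes tested passed (27.4% lower, 25.7% higher). These 20 include Mmp9, which passed the filter only through the line where it was higher. With Pam3CSK4 20 were lower and 3 higher (65.6% of all genes, 33.5% lower, 32.1% higher), and with both agents 20 and 4 (60.2%, 29.7% lower, 30.5% higher). Libraries of the lines did not overlap for 21, 22 and 23 of the 26, against 47.8, 61.9 and 54.1% of all genes tested. Mmp9 is among the 21 with IFNg. The median was -1.39, -1.01 and -1.04 on the log2 scale over the 26, and 0.00, -0.02 and 0.01 over all genes. Secondary granule genes had medians of -3.99, -3.35 and -3.31, and primary granule genes of -0.37, -0.60 and -0.72. Elane, Camp, Ngp, Ltf, Lcn2, Chil3, Olfm4, S100a8, S100a9 and Fcnb were lower in the mutant in all 4 comparisons, each with a log2 difference of -2.81 or lower. Mmp8 was higher in all 4, by 1.92 to 2.09. Ctsg was at 302 to 339 CPM in the 12 wild-type libraries with an agent. In the mutant it was at 355, 368, 380 and 316 CPM with IFNg, and its 4 values with both agents were 401, 359, 423 and 438 CPM. Only the IFNg groups overlapped. It was called under each agent, higher in the mutant by 0.17 ± 0.05 with IFNg, 0.45 ± 0.05 with Pam3CSK4 and 0.37 ± 0.05 with both (adjusted p = 0.0087, 1.5e-08 and 6.0e-07). Once the model held the structural RNA share, the IFNg value of Ctsg was no longer called (log2 0.07, adjusted p = 0.211). Serpinb1a was called higher with Pam3CSK4 (0.16 ± 0.07) and with both agents (0.17 ± 0.07), and Lyz2 with both (0.30 ± 0.10). In that model these turned to -0.13, -0.05 and -0.02. The Serpinb1a calls were also lost with no filter on low counts. With Pam3CSK4 they were lost on leaving out wild-type library 2 or 4 or mutant library 3 or 4, and with both agents on leaving out wild-type library 3 or 4 or mutant library 1, 3 or 4.

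In wild-type cells many of these genes were at lower CPM with an agent than with vehicle, by 2.29-fold at most. With IFNg 13 of the 26 fell and none rose (35.4% of all genes tested passed, 17.6% lower and 17.8% higher). With Pam3CSK4 14 fell and 2 rose (22%, 11.7% lower and 10.4% higher), and with both agents 14 fell and 2 rose (43.7%, 22.4% lower and 21.2% higher). The median of the 26 was -0.26, -0.24 and -0.27 on the log2 scale, against -0.01, 0.00 and -0.03 over all genes. Groups did not overlap for 8, 11 and 13 of the 26, against 27.8, 18.7 and 34.5% of all genes tested.

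Many of these calls were lost in fits that address the structural RNA share, and these fits cannot tell that share from the agents. It did not overlap between wild-type vehicle libraries (19.4 to 28.8%) and wild-type libraries with an agent (12.8 to 17.8%). Leaving out vehicle libraries also lowers the power of the test. Without wild-type vehicle libraries 1 and 4, 7, 1 and 9 of the 26 were called with IFNg, Pam3CSK4 and both agents. In the model that holds the share 5 (4 lower and 1 higher), 0 and 4 (3 lower and 1 higher) were called. Over all genes the counts went from 5265, 3277 and 6491 to 4016, 648 and 5295 without the 2 libraries (of 15303 tested). In the model with the share they were 2794, 176 and 3640 of 14869. Leaving out wild-type vehicle library 4 alone took the Pam3CSK4 count from 16 to 8 of the 26, and leaving out wild-type Pam3CSK4 library 3 or 4 took it to 10. The deposited TPM values, which carry no scaling between libraries, were higher with an agent. The 33 genes summed to 887 ± 136 TPM with vehicle and to 1179, 1300 and 1297 TPM on average with IFNg, Pam3CSK4 and both. The TPM total includes the structural RNA genes, whose share was lower with an agent, so these sums do not give the direction of the 33 genes. Gata2 also went from 4.74 to 7.69 TPM with Pam3CSK4, while it was at 43.4 and 44.4 CPM. Which part of the falls belongs to the agents was not tested.

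**Figure D4:**
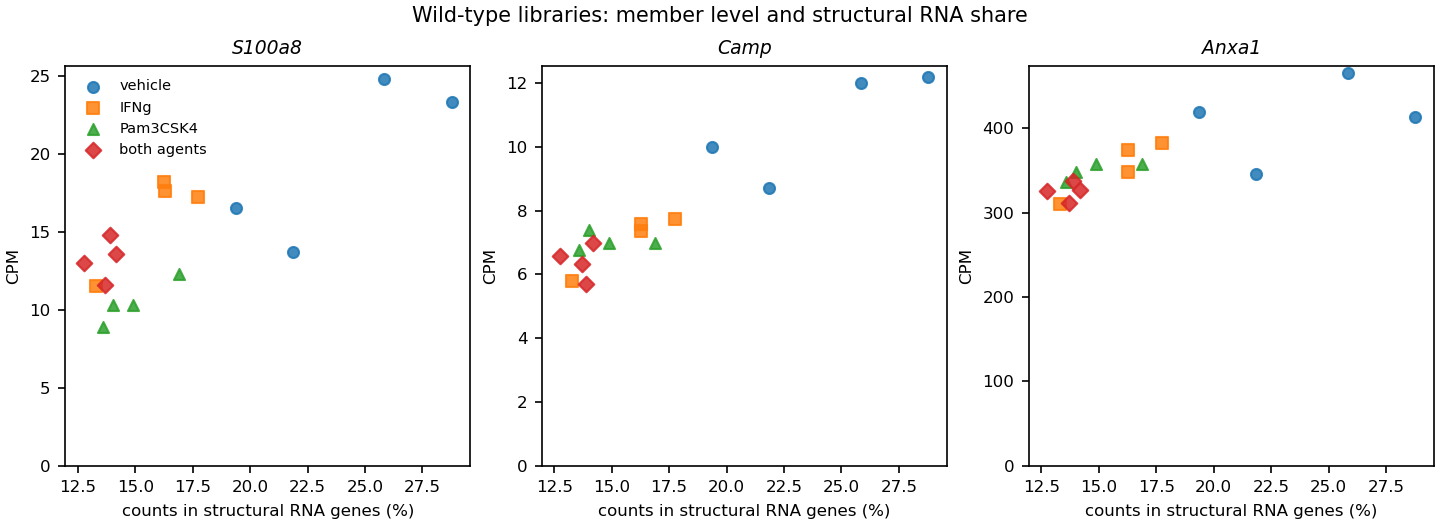
CPM (vertical axes from 0) of S100a8, Camp and Anxa1 against the percentage of counts in mitochondrial and small structural RNA genes in the 16 wild-type libraries, by treatment. Vehicle libraries 1 and 4 (25.83 and 28.78%) have the 2 highest S100a8 values, 24.8 and 23.3 CPM, and the libraries with an agent lie at 17.8% or less.

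Lyz2, Prss57 and Itgb2 kept their wild-type falls with IFNg and with both agents in all 3 fits. Lyz2 was at 8.67, 9.47, 11.4 and 7.66 CPM with IFNg, at 10.3, 10, 10.3 and 8.91 with Pam3CSK4, and at 6.66, 6.87, 7.13 and 7.41 with both, against 12.6 to 18.7 with vehicle. All 12 values lay below every vehicle library (log2 -0.78 ± 0.10, -0.70 ± 0.10 and -1.19 ± 0.10, adjusted p = 1.6e-07, 1.0e-05 and 1.6e-11). All 3 stayed called without vehicle libraries 1 and 4 (adjusted p = 6.0e-05, 0.00344 and 2.5e-09). In the model with the share they were -0.50, -0.37 and -0.83, and the Pam3CSK4 value was no longer called (adjusted p = 0.0792). Prss57 was at 10.1, 11.1, 10.6 and 10.8 CPM with IFNg, at 12.3, 12.8, 12.3 and 12.3 with Pam3CSK4 and at 10.1, 9.24, 10.6 and 10.7 with both, all below its vehicle range of 13.7 to 15.1 CPM. It fell by 0.44 ± 0.06, 0.22 ± 0.06 and 0.51 ± 0.06, and its falls with IFNg and with both agents stayed called in both settings (-0.40 and -0.47, and -0.30 and -0.33). Itgb2 fell by 0.19 ± 0.04 with IFNg and 0.29 ± 0.04 with both, by 0.22 and 0.31 without the 2 libraries, and by 0.25 and 0.36 in the model with the share.

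Other wild-type changes lost their calls in at least 1 of these fits. S100a8 was at 10.3, 12.3, 10.3 and 8.91 CPM with Pam3CSK4, below all 4 vehicle libraries (log2 -0.90 ± 0.16, adjusted p = 4.5e-04). The value was -0.53 without vehicle libraries 1 and 4 (adjusted p = 0.0624) and -0.27 in the model with the share (adjusted p = 0.712). S100a9 was at -0.81 ± 0.16, then at -0.54 and -0.36, neither called. Camp was at 5.8 to 7.75 CPM with IFNg, 6.77 to 7.38 with Pam3CSK4 and 5.71 to 6.97 with both, below all 4 vehicle libraries. It fell by 0.59 ± 0.12, 0.61 ± 0.12 and 0.74 ± 0.12 on the log2 scale, and the fall was 0.40, 0.41 and 0.55 without the 2 libraries, with Pam3CSK4 no longer called (adjusted p = 0.087). In the model with the share the values were -0.19, -0.15 and -0.22, none called. Chil3 fell with IFNg and with both agents (-0.79 ± 0.21 and -0.93 ± 0.21) and Ltf with Pam3CSK4 and with both (-0.62 ± 0.18 and -0.73 ± 0.18). Neither was called for any agent in the model with the share, and the Pam3CSK4 fall of Ltf was also lost without wild-type vehicle library 4. Csf3r rose with Pam3CSK4, from 16.3, 17.7, 17.6 and 19.1 to 21.2, 20.9, 19.5 and 20.8 CPM, without overlap (0.22 ± 0.06, adjusted p = 0.00586). Its value was 0.22 without the 2 libraries and 0.25 in the model with the share (adjusted p = 0.0567 and 0.141). With both agents Csf3r rose by 0.16, a call lost in 5 of 16 alternative fits. Cst7 rose by 0.09 with Pam3CSK4 and by 0.12 with both agents. These calls were lost in 10 and 1 of 16 alternative fits, the model with the share among them. Mmp8 was at 12.6, 12.5 and 12.6 CPM with the 3 treatments and 12.7 with vehicle, with 95% intervals of the log2 change between -0.14 and 0.12.

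In mutant cells 8 of the 26 fell with IFNg and 1 rose (33.2% of all genes tested passed, 14.9% lower and 18.3% higher). With Pam3CSK4 4 fell and 5 rose (24.3%, 12.8% lower and 11.5% higher), and with both agents 5 fell and 3 rose (43.8%, 20.1% lower and 23.7% higher). The medians over the 26 were -0.15, 0.00 and 0.05 on the log2 scale, and -0.01, 0.00 and -0.01 over all genes. Groups did not overlap for 6, 7 and 7 of the 26, against 32.4, 26.5 and 39.5% of all genes tested. In the model with the structural RNA share 6 fell and 3 rose with IFNg, and 6 fell and 5 rose with Pam3CSK4. With both agents 4 fell and 6 rose in that model. It called 4545, 3907 and 6870 of all 14869 genes for the 3 treatments.

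Lcn2 had the greatest rise. It was at 0.747, 1.15, 0.732 and 0.771 CPM with vehicle and 1.41, 1.79, 1.36 and 1.26 CPM with Pam3CSK4. The groups did not overlap (log2 0.79 ± 0.14, adjusted p = 4.8e-05), and these values rest on 44 to 87 counts per library. With both agents it was at 1.43, 1.06, 1.56 and 1.49 CPM, where 1 library lay below the highest vehicle library (0.71 ± 0.14, adjusted p = 8.0e-05). Even so, the highest mutant value, 1.79 CPM, was below the lowest wild-type one, 6.84 CPM. Camp was at 0.439, 0.548, 0.436 and 0.531 CPM with Pam3CSK4 against 0.145 to 0.449 with vehicle, on 9 to 27 counts per library. Its rise of 0.68 ± 0.25 (adjusted p = 0.0403) was no longer called with any of 4 single libraries left out (mutant vehicle 1 and 4, mutant Pam3CSK4 2 and 4), with the replicate number as a block, or with the groups of the comparison alone.

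Anxa1 and Ctsg, both abundant, also rose with Pam3CSK4 alone. Anxa1 was at 199, 195, 186 and 175 CPM with vehicle and 245, 258, 262 and 283 CPM with Pam3CSK4. All 4 values lay above the vehicle range (log2 0.47 ± 0.08, adjusted p = 4.4e-05). With IFNg Anxa1 fell to 157, 169, 177 and 134 CPM (-0.24 ± 0.08), and with both agents it was at 201, 184, 210 and 220 CPM (0.11 ± 0.08, adjusted p = 0.272). Ctsg was at 429, 434, 468 and 470 CPM with Pam3CSK4 against 378 to 412 with vehicle (0.19 ± 0.05, adjusted p = 0.0111). Csf3r rose with Pam3CSK4 and with both agents (0.17 ± 0.06 and 0.32 ± 0.06), to 12.2, 10.9, 11.7 and 13.4 CPM with both. Cst7 rose by 0.09 with IFNg, the only rise there, and by 0.12 with both agents. The IFNg call of Cst7 was lost in 7 of 15 alternative fits and its both-agent call in none.

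In the mutant line 4 genes (Ltb4r1, Itgb2, Prss57 and Mpo) fell with every treatment. Ltb4r1 was at 0.755, 0.567, 0.442 and 0.585 CPM with IFNg, 0.666, 0.506, 0.628 and 0.642 with Pam3CSK4, and 0.328, 0.561, 0.665 and 0.549 with both, all below its 4 vehicle values (-0.60 ± 0.15, -0.52 ± 0.16 and -0.77 ± 0.16). Itgb2 fell from 41.6 to 44.9 CPM with vehicle to 36.9 to 40.4, 34.4 to 36.1 and 34.2 to 34.9 CPM. Prss57 was at 5.42 to 5.95, 5.52 to 6 and 4.61 to 5.53 CPM, all below its vehicle range of 6.62 to 7.8, and fell by 0.30 ± 0.06, 0.28 ± 0.06 and 0.49 ± 0.07. Mpo was at 1687, 1599, 1647 and 1782 CPM with IFNg, at 1717, 1609, 1638 and 1600 with Pam3CSK4 and at 1618, 1558, 1708 and 1675 with both. It fell by 0.15, 0.18 and 0.18 on the log2 scale, each with an SE of 0.04 and with no overlap of libraries. Ltf fell with IFNg (-1.35 ± 0.37, adjusted p = 0.00519) on 6 to 25 counts per library, and its libraries overlapped with vehicle. Lyz2 fell with IFNg by 0.41 on the log2 scale and stayed called in all 15 alternative fits. S100a8, S100a9 and Ngp were not called with any agent in the mutant line, and Mmp8 stayed between 47.6 and 53.3 CPM on average (95% intervals of the log2 change between -0.20 and 0.18).

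**Figure D5:**
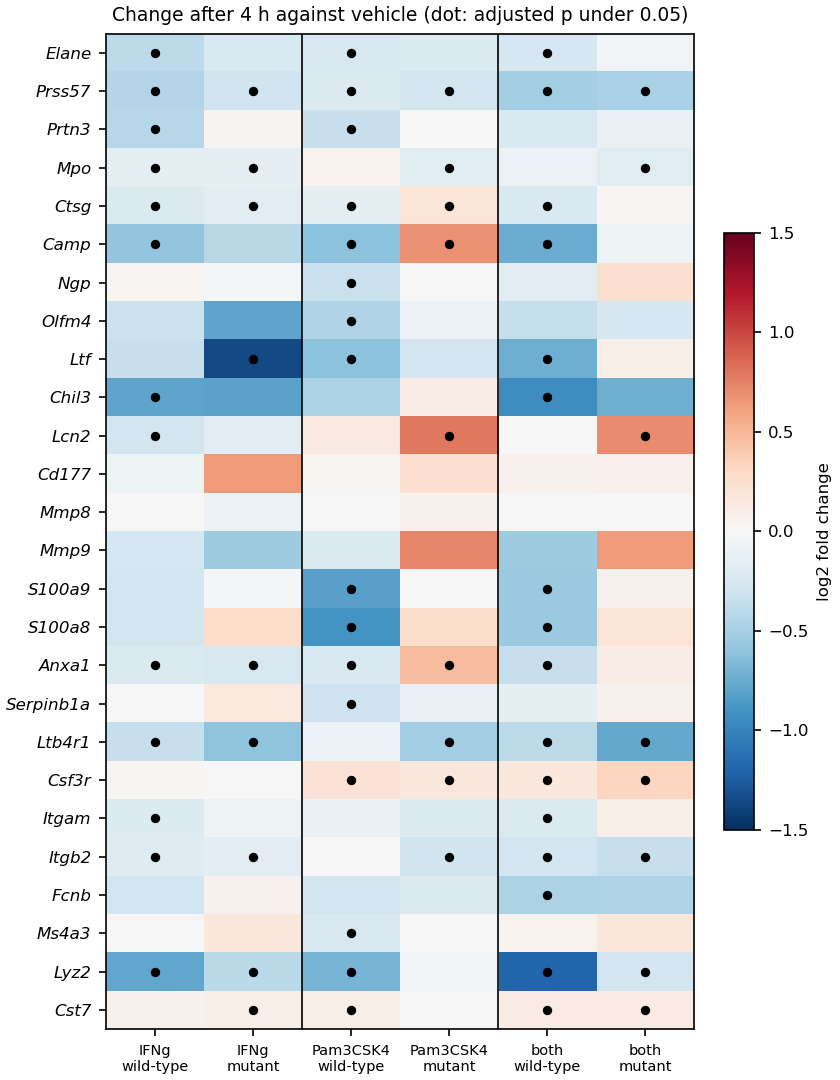
Log2 fold change after 4 h against vehicle of the same line (colour, scale from -1.5 to 1.5) for the 26 tested genes in 6 columns, with a dot where the adjusted p is under 0.05. Wild-type columns are mostly blue with up to 16 dots, mutant columns hold at most 9, and Lcn2, Camp, Anxa1 and Ctsg carry red dots for Pam3CSK4 in the mutant line only.

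Whether the responses differed between the lines was tested directly. For IFNg no member differed by adjusted p, with 3 of 26 under an unadjusted p of 0.05, and DESeq2 also called none (1.65% of all genes passed in edgeR, 0.827% higher and 0.82% lower). For Pam3CSK4 8 of 26 differed (26.6% of all genes, 14.3% higher and 12.3% lower), 6 with a higher log2 response in the mutant and 2 with a lower one. Camp (1.29 ± 0.28, adjusted p = 7.6e-04), S100a8 (1.16 ± 0.30), Anxa1 (0.71 ± 0.11, adjusted p = 4.6e-05), Lcn2 (0.66 ± 0.17), Lyz2 (0.65 ± 0.14) and Ctsg (0.34 ± 0.08) were higher, and Itgb2 (-0.28 ± 0.05) and Mpo (-0.23 ± 0.06) lower. All 8 remained called without wild-type vehicle libraries 1 and 4. In the model with the structural RNA share only Anxa1 (0.46 ± 0.12, adjusted p = 0.012) and Itgb2 (-0.21 ± 0.06, adjusted p = 0.0218) remained.

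For both agents 5 of 26 differed, all with a higher log2 response in the mutant (15.8% of all genes, 8.8% higher and 6.99% lower). They were Lyz2 (0.91 ± 0.14, adjusted p = 2.7e-05), Lcn2 (0.70 ± 0.17, adjusted p = 0.00458), Anxa1 (0.45 ± 0.11), Itgam (0.33 ± 0.11) and Ctsg (0.26 ± 0.08). Lyz2 and Lcn2 stayed called without wild-type vehicle libraries 1 and 4 (0.71 and 0.66) and in the model with the share (0.64 and 0.66), and the other 3 did not. Itgam lost its call in 15 of 24 alternatives, among them 10 that leave out 1 library (mutant vehicle 2, 3 or 4, mutant both-agent 3 or 4, wild-type vehicle 2 or 4, wild-type both-agent 2, 3 or 4), both other filters and the groups alone. Leaving out mutant both-agent library 4 left 3 of the 26 called, and leaving out mutant vehicle library 1 gave 8. For Lyz2 the values show a deep fall in the wild-type line (-1.19) beside a shallow one in the mutant (-0.29). The mutant fall was not called in the model with the share, nor without mutant vehicle library 1 or mutant both-agent library 2. For Lcn2 the values show a rise in the mutant (0.71) beside 0.01 ± 0.10 in the wild-type. Of the regulators, Cebpd, the gene of C/EBP-delta, differed most between the lines in its response to Pam3CSK4 (1.80 ± 0.19, adjusted p = 1.2e-08). It was at 9.88, 8.81, 10.1 and 8.32 CPM in the mutant with Pam3CSK4 against 3.34 to 4.5 with vehicle, and at 3.59, 3.58, 3.09 and 3.35 CPM in the wild-type with Pam3CSK4 against 3.76 to 6.27.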

How the data were processed

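RNA was measured in 32 libraries of 2 lines, 4 in each of 8 groups. The deposited RSEM tables give an expected count and a TPM value per gene and library. Per the submitters' processing notes, RSEM 1.3.0 and STAR 2.5.2b were used with mm10. In the deposited files 11.07% of non-zero expected counts are not whole numbers. The deposited TPM values correct for length and are not rescaled between libraries here. Identifiers were matched to GENCODE vM21 with the version ignored (55394 of 55487).

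Expected counts were rounded and fitted with edgeR 4.0.16 (filterByExpr, TMM, robust quasi-likelihood test, 1 mean per group) over 14869 genes (40618 removed, lowest level counted 0.175 CPM). Adjusted p-values are Benjamini-Hochberg within each of 13 comparisons, at 0.05, and errors in log2 values are standard errors of the model. R 4.3.3, Python 3.11.15 and DESeq2 1.42.0 were also used, and the fit was tested on simulated counts. Structural RNA comprised 5207 mitochondrial, miRNA, snRNA, snoRNA and similar genes. Library totals of 44.18 to 71.42 M leave Camp in mutant cells with 9 to 27 counts per library. No pair of libraries within a group agreed within counting noise. Alternatives were RLE and DESeq2 normalization, other filters, a replicate block, the structural RNA share as a term, the groups of a comparison alone, and leaving out libraries. Over all genes, no pairing of same-numbered libraries was seen.

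The genes, lists and tests were chosen with earlier results of these data known. All members are accounted for. Members were named by a rule of up to 4 called rises and 4 called falls per comparison among those reaching 1 CPM, some of them here with group ranges, means or log2 values in place of single-library values, and from 3 further lists up to 3 rises and 3 falls are named. Members that did not pass the test are also described. The single values of 1 marker gene are not reported here.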

Additional observations from a re-analysis of the deposited data

Results flagged for a closer look

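In 13 of 208 pairs of a tested gene and a group, 1 library stood apart from the other 3 by Dixon's test, which chance alone does in about 1 in 20 groups. Mutant vehicle library 4 accounted for 3 of them, all low: S100a8 at 0.707 CPM (the others 1.15 to 1.24), Serpinb1a at 209 CPM (226 to 227) and Lyz2 at 9.47 CPM (10.8 to 11). In other mutant vehicle libraries, Ngp was at 1.51 CPM in library 1 (0.949 to 0.964), Lcn2 at 1.15 CPM in library 2 (0.732 to 0.771) and Ltb4r1 at 0.998 CPM in library 3 (0.833 to 0.86). In mutant cells with an agent, Ltf was at 0.356 CPM in IFNg library 3 (0.105 to 0.147), S100a9 at 1.55 CPM in Pam3CSK4 library 4 (1.23 to 1.27) and Chil3 at 0.343 CPM in both-agent library 4 (0.0746 to 0.095). In wild-type cells, Prtn3 was at 157 CPM (131 to 136) and Prss57 at 12.8 CPM (all others 12.3) in Pam3CSK4 library 2. S100a8 was at 11.5 CPM in IFNg library 4 (17.2 to 18.2) and Itgb2 at 60.9 CPM in vehicle library 2 (56.8 to 57.4).

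Responses that differed between the lines by the interaction test are listed as the mutant log2 response minus the wild-type one. For Pam3CSK4 these were Camp (1.29), S100a8 (1.16), Anxa1 (0.71), Lcn2 (0.66), Lyz2 (0.65), Ctsg (0.34), Itgb2 (-0.28) and Mpo (-0.23). For both agents they were Lyz2 (0.91), Lcn2 (0.70), Anxa1 (0.45), Itgam (0.33) and Ctsg (0.26).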

How the results depend on the processing

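Over 72 changes of single genes and their alternatives (1191 values), 1107 kept direction and call, 81 lost the call and 3 reversed. The reversals were in the model with the structural RNA share, for mutant against wild-type: Serpinb1a with Pam3CSK4 (-0.13) and both agents (-0.05), and Lyz2 with both agents (-0.02). That model called 5 members for wild-type IFNg (13 in the reported fit), 0 for Pam3CSK4 (16) and 4 for both agents (16), and 2 members for the line difference in the Pam3CSK4 response (8) and 2 in the combined response (5). Without wild-type vehicle libraries 1 and 4 the wild-type counts were 7, 1 and 9, and 2 members differed in the combined response. That last count was 3 with no filter and 3 with the groups of the comparison alone. Leaving out 1 library gave 8 to 16 members for wild-type Pam3CSK4 (8 without vehicle 4), 0 to 1 for the line difference in the IFNg response, 8 to 11 for Pam3CSK4 and 3 to 8 for the combined response. For mutant against wild-type such counts were 22 to 24, 22 to 23, 21 to 23 and 22 to 24 under vehicle, IFNg, Pam3CSK4 and both agents. Over all genes the share model called 2794, 176 and 3640 genes for the 3 wild-type responses (5265, 3277 and 6491), and 1212 and 1380 for the Pam3CSK4 and combined differences (3956 and 2347). Without libraries 1 and 4, 4016, 648 and 5295 of 15303 genes were called for the 3 wild-type responses. The Pam3CSK4 and combined differences then had 2444 and 1620. Wild-type Pam3CSK4 calls were 2057 with the groups alone and 2048 without vehicle library 4. The 245 genes of the IFNg difference became 406 by DESeq2, 127 with the groups alone, and 136 to 382 with 1 library left out. The combined difference had 1308 genes higher and 1039 lower, 1056 and 1630 after a filter of 1 CPM, and 710 and 1184 with the groups alone. The cause of these shifts was not tested. With the replicate number as a block, members called went from 9 to 8 (mutant Pam3CSK4), 23 to 22 (mutant against wild-type, Pam3CSK4), 16 to 15 (wild-type Pam3CSK4) and 16 to 17 (wild-type both agents). Same-numbered libraries had correlations of -0.24 to 0.23 over 112 pairs, and 7 of 32 libraries correlated best with their own number. These values over all genes show no pairing by number, and pairing that affects few genes was not tested. Depth limits Camp, Ltf, Chil3, Mmp9 and Cd177 in mutant cells, where single libraries hold 2 to 50 counts of Mmp9 or Ltf.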

Other observations

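The genes beside Mmp8 and Elane were looked up after the values of both were seen, in vehicle libraries and as mutant over wild-type. Mmp27, the next gene after Mmp8 on chromosome 9 (mm10, 7571396 to 7581885, Mmp8 at 7558456 to 7568485), was lower in the mutant while Mmp8 was higher. It was at 0.546 ± 0.12 CPM in wild-type and 0.129 ± 0.0223 CPM in mutant cells (SD, n = 4, log2 -2.04 ± 0.38). Mmp10, on the other side of Mmp8, was close to 0 in both lines (0.00493 and 0.0487 CPM) and was called higher in the mutant by edgeR (adjusted p = 0.0107). Both means lie below 0.175 CPM, the lowest level the filter counted. Mmp10 thus passed the filter only through libraries outside this comparison, and its call rests on values near 0. Around Elane on chromosome 10 (79886247 to 79888215), Prtn3 was lower by 0.85 on the log2 scale, while the housekeeping splicing gene Ptbp1 was lower by 0.15 ± 0.04 and Med16 by 0.22 ± 0.09. Plppr3 (0.01 ± 0.09) and R3hdm4 (-0.11 ± 0.05) were not called in edgeR's test.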
